A study of Mus musculus with 9 samples.

Results

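The enzymes described here are 7 phosphatases that act against class I phosphoinositide 3-kinase (PI3K) and its effector AKT, and they were named one by one: Inpp5d, Inppl1, Inpp4a, Inpp4b, Inpp5e, Phlpp1 and Phlpp2. All 7 were found among the 47643 genes of the count table, and all 7 passed the filter on low counts, as did 18205 genes in total. Their transcripts were measured in long-term hematopoietic stem cells (LT-HSCs) of the mouse, sorted as Lin-cKit+Sca1+Flk2-CD48-CD150+ donor-derived cells from transplanted bone marrow. RNA was amplified and sequenced in 9 libraries, 3 for each of 3 genotypes. WT cells carried the Mx1-Cre transgene with wild-type PI3K genes. δKO cells had a germline deletion of Pik3cd (Pik3cd-/-) together with floxed Pik3ca (Pik3calox-lox) and Pik3cb (Pik3cblox-lox), and no Cre. TKO cells had the same 3 alleles plus Mx1-Cre, which excises Pik3ca and Pik3cb. Mx1-Cre is driven by an interferon-inducible promoter that is active in blood cells of every lineage. Donors were C57BL/6 mice, recipients were lethally irradiated B6.SJL mice of 6 to 8 weeks, and both sexes were used. For donors the methods of the study give an age of 6 to 8 weeks and its results 4 to 6 weeks. All groups received pIpC, an interferon inducer, as 2 injections of 250 μg given 48 hours apart, 4 weeks before the cells were taken. Because only TKO combined Cre with floxed alleles and δKO lacked Cre, excision and Cre activity cannot be told apart in TKO against δKO. In TKO against WT, Cre was shared and all 3 PI3K genes differed.

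Class I PI3K adds a phosphate at the 3 position of the membrane lipid PI(4,5)P2 and so makes PIP3, which recruits AKT to the membrane. Several phosphatases work against this signal at different steps. SHIP1, encoded by Inpp5d, and SHIP2, encoded by Inppl1, remove the 5-phosphate of PIP3 and leave PI(3,4)P2, which can itself bind AKT. INPP4A and INPP4B then remove the 4-phosphate of PI(3,4)P2. INPP5E is a 5-phosphatase best known from the primary cilium, and PHLPP1 and PHLPP2 are protein phosphatases that remove a phosphate from AKT itself. SHIP1 is largely restricted to blood cells, where its loss expands myeloid cells, whereas SHIP2 is widely expressed. The study compared the genotypes to learn how stem cells change when PI3K signaling is lost, and phosphatases of this pathway were of interest to it in myelodysplastic syndrome.

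The SHIP genes differ in the sequence before their start sites as well as in their level, so the 250 bases upstream of the first listed RefSeq start of both genes are shown, 5′ to 3′ on the strand of the gene, with CG dinucleotides in capitals (RefSeq, GRCm38.p6, the patched release of the mm10 build). For Inppl1 and Inpp5e 2 starts are listed, for Inpp4a 3 and for the other phosphatases 1. Only the first listed start of each gene was used. The Inpp5d window is chr1:87620062-87620311 on the plus strand and the Inppl1 window is chr7:101838227-101838476 on the minus strand.
Inpp5d: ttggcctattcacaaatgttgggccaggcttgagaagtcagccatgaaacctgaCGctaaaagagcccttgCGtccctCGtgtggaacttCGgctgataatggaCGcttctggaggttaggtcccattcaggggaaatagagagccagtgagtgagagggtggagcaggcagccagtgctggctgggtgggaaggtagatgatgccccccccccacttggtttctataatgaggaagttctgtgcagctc
Inppl1: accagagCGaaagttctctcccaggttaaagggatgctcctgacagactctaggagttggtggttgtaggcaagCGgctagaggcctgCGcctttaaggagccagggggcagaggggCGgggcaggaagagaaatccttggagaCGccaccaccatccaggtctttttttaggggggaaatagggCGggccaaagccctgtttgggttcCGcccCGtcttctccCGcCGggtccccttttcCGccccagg
The Inpp5d window holds 5 CG dinucleotides, near the median of 6 over the same window of 27025 genes. The Inppl1 window holds 11. Among the other phosphatases the window held 7 CG dinucleotides in Inpp4a, 15 in Inpp5e, 19 in Inpp4b, 29 in Phlpp2 and 31 in Phlpp1. The Phlpp1 window was at percentile 95.1 of all genes for this count, the Phlpp2 window at 93.6 and the Inpp5d window at 44.5. The FOXO motif GTAAACA, searched on both strands because FOXO factors are restrained by AKT, occurred in 0 of the 7 windows and in 3.09% of all windows. The E-box CACGTG occurred in 0 of 7 and 6.05% of all, and the ETS motif CCGGAA in 0 of 7 and 12.2% of all.

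The libraries held 31300343 to 60386097 counts, and in each library between 18180 and 22703 genes had at least 1 count, with the fewest in δKO replicate 1 (18180) and in the δKO library whose number in the count table appears in no sample label (18500), called the unnumbered δKO library below. According to the methods, cells of 7 recipients per group were pooled, so p-values measure the spread between these libraries, which may be technical. The highest level of Xist, the transcript that silences an X chromosome in female cells, was 107 to 166 times the lowest within each genotype, so the libraries of a genotype were not equal parts of 1 mixture. All 9 HSC marker genes checked were detected in all 9 libraries, with summed levels of 1370 to 1650 CPM in WT, 1370 to 3020 CPM in δKO and 1910 to 2390 CPM in TKO (counts relative to the library total, scaled by edgeR's TMM factors), so the TKO sums were above all WT sums. The part of these markers in the differences between genotypes was not tested. Of 5 T and NK cell markers, Cd3e and Cd3g were at 0 in every library, Cd3d reached 8.17 CPM, and Nkg7 was at 3.75 to 231 CPM and made up most of a summed level of 79.9 to 232 CPM in WT, 3.83 to 192 CPM in δKO and 24.7 to 67.0 CPM in TKO. The 6 B cell markers summed to 4.75 to 12.0 CPM. The progenitor markers Flt3, Cd48, Cd34, Mpo, Elane and Ctsg, none of them at 0 in any library, summed to 2640 to 12100 CPM in WT libraries, 282 to 10600 CPM in δKO libraries and 196 to 2810 CPM in TKO libraries. The granule protein genes Mpo, Elane and Ctsg carried most of the high sums, and Cd34 did not follow them, with 59.8 CPM in the unnumbered δKO library, where the sum was 10600 CPM, and 67.9 to 155 CPM in WT. The summed level of 10 neutrophil markers was 515 to 8720 CPM in WT, with 117 to 1780 CPM for δKO and 76.4 to 556 CPM for TKO. In bulk RNA, fewer cells of a type and less RNA per cell cannot be told apart. The files give counts of whole genes and not of the excised exons, and the targeted genes were detected in all libraries. Pik3cb was at 25.5 to 33.9 CPM in TKO, 33.2 to 101 CPM in δKO and 44.6 to 63.6 CPM in WT, so TKO overlapped with δKO. Pik3cd was at 71.2 to 73.5 CPM in TKO, 38.5 to 91.2 CPM in δKO and 98.2 to 139 CPM in WT, and Pik3ca was at 41.3 to 88.2 CPM over all libraries.

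Inpp5d had the highest level of the 7 phosphatase transcripts. Per length (RPKM, the CPM divided by the kilobases of merged exons) its mean over the 9 libraries was 22.8, with a range from 15.3 to 32.1. It ranked first among the 7 genes in every library, and it supplied from 38.4% to 64.2% of their summed level. Inpp5e followed with a mean of 8.86 RPKM and ranked between 2 and 4 in single libraries. The means of Phlpp1 (4.85 RPKM), Phlpp2 (3.80 RPKM), Inpp4a (3.34 RPKM) and Inppl1 (2.73 RPKM) followed, and the order of these 4 changed from library to library. Without δKO replicate 1 the mean of Phlpp1 over the other 8 libraries was 3.02 RPKM, below the 3.83 RPKM of Phlpp2. Inpp4b was last in every library, with a mean of 1.11 RPKM and at most 3.65% of the sum. Among all kept genes the mean level of Inpp5d per length was at percentile 91.1 for WT, 89.8 for δKO and 91.5 for TKO, whereas Inpp4b was at 27.6, 29.0 and 33.4.

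**Figure D1:**
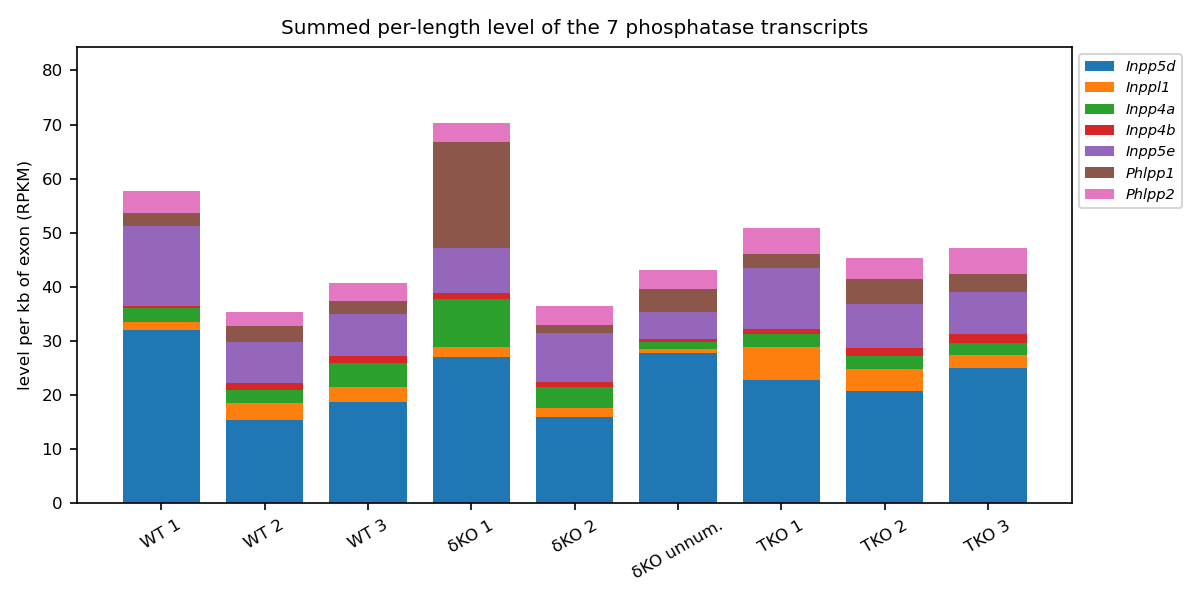
Level per kilobase of exon (RPKM, linear axis from 0) of the 7 phosphatase transcripts, stacked for each of the 9 libraries. Inpp5d is the largest segment in every library, and the sum is widest in δKO, where replicate 1 carries a large Phlpp1 segment of 19.5 RPKM.

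The summed level of the 7 genes was 44.6 ± 11.7 RPKM for WT, 49.9 ± 18.0 for δKO and 47.9 ± 2.82 for TKO (SD, n = 3 each). The 3 means differed by less than the SD in WT or δKO. The TKO libraries lay closest together.

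No phosphatase was called between genotypes. With edgeR's quasi-likelihood test on all 18205 genes and a Benjamini-Hochberg adjusted p under 0.05 with more than 2-fold change as the criterion, 0 of 7 genes passed in TKO against WT, in TKO against δKO and in δKO against WT. Over all genes this criterion called 0.00549% in TKO against WT, 0% in TKO against δKO and 0.00549% in δKO against WT. At an unadjusted p under 0.05, 0 of 7 passed in TKO against WT (4.19% of all genes), 1 of 7 in TKO against δKO (10.2% of all genes) and 1 of 7 in δKO against WT (7.01% of all genes). DESeq2, run with all 9 libraries or with 2 groups at a time, also had 0 of 7 at an adjusted p under 0.05 in each comparison. Over all genes DESeq2 called 0.649% in TKO against WT, 3.25% in TKO against δKO and 1.04% in δKO against WT with all libraries, and 3.38%, 1.51% and 0.993% with 2 groups at a time. The median log2 fold change of the 7 genes was 0.40 in TKO against WT, 0.28 in TKO against δKO and 0.09 in δKO against WT, beside medians over all genes of 0.02, −0.06 and 0.05. It was above 0 for 5 of 7, 4 of 7 and 4 of 7 genes, beside 51.2%, 47.2% and 52.8% of all genes. Without regard to p, 0 of 7 genes had genotypes that did not overlap in TKO against WT, where 14.4% of all genes did (6.88% higher and 7.47% lower in TKO). In TKO against δKO 2 of 7 did not overlap and both were higher in TKO, beside 11.7% of all genes (6.98% higher and 4.74% lower in TKO). In δKO against WT it was 0 of 7, beside 11.5% of all genes (4.13% higher and 7.39% lower in δKO). The comparisons share libraries pairwise, so they are not independent of each other.

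**Figure D2:**
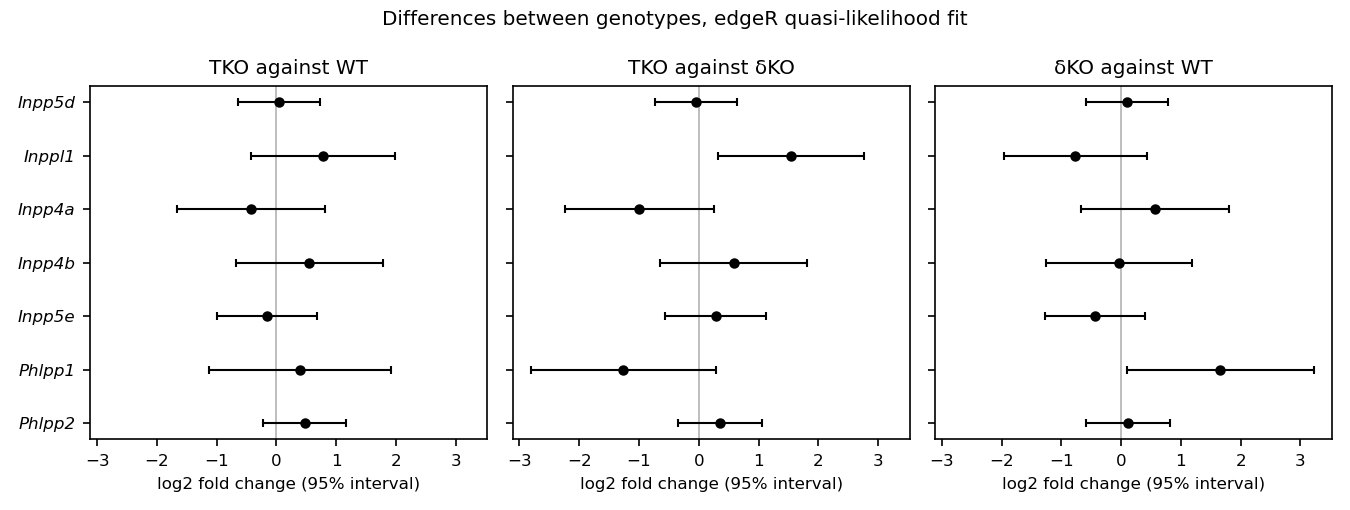
Log2 fold change of each phosphatase gene (x axis, points) with its 95% interval (bars) in the 3 comparisons, from edgeR's quasi-likelihood fit on all 9 libraries. The interval leaves out 0 for Inppl1 in TKO against δKO and for Phlpp1 in δKO against WT, and the narrowest intervals are those of Inpp5d and Phlpp2.

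Inpp5d (SHIP1, ENSMUSG00000026288.14) lies on chromosome 1 of mm10 from 87620312 to 87720507, on the plus strand. Its level was 244, 116 and 142 CPM in WT replicates 1 to 3. The δKO level was 205 CPM in replicate 1, 121 CPM in replicate 2 and 211 CPM in the unnumbered library. In TKO it was 173, 158 and 189 CPM in replicates 1 to 3. The TKO libraries fell inside the range of the WT and of the δKO libraries, and the genotypes overlapped throughout. The means were 167 ± 67.4 CPM for WT, 179 ± 50.5 for δKO and 173 ± 15.7 for TKO (SD, n = 3 each). The log2 fold change of Inpp5d in TKO against WT was 0.05 (standard error 0.313, 95% interval −0.64 to 0.73, edgeR adjusted p = 1.00). It was −0.05 in TKO against δKO (95% interval −0.73 to 0.64, edgeR adjusted p = 0.972) and 0.09 in δKO against WT (95% interval −0.59 to 0.78, edgeR adjusted p = 0.972). These intervals leave out a 2-fold difference in either direction, but they rest on the spread between these libraries, which may be technical. The sign of each value changed under other settings, and without WT replicate 1 the value in TKO against WT was 0.42. The biological coefficient of variation between libraries of a genotype was 0.308 for Inpp5d, the smallest of the 7 genes and at percentile 11.0 of all kept genes (median 0.677).

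**Figure D3:**
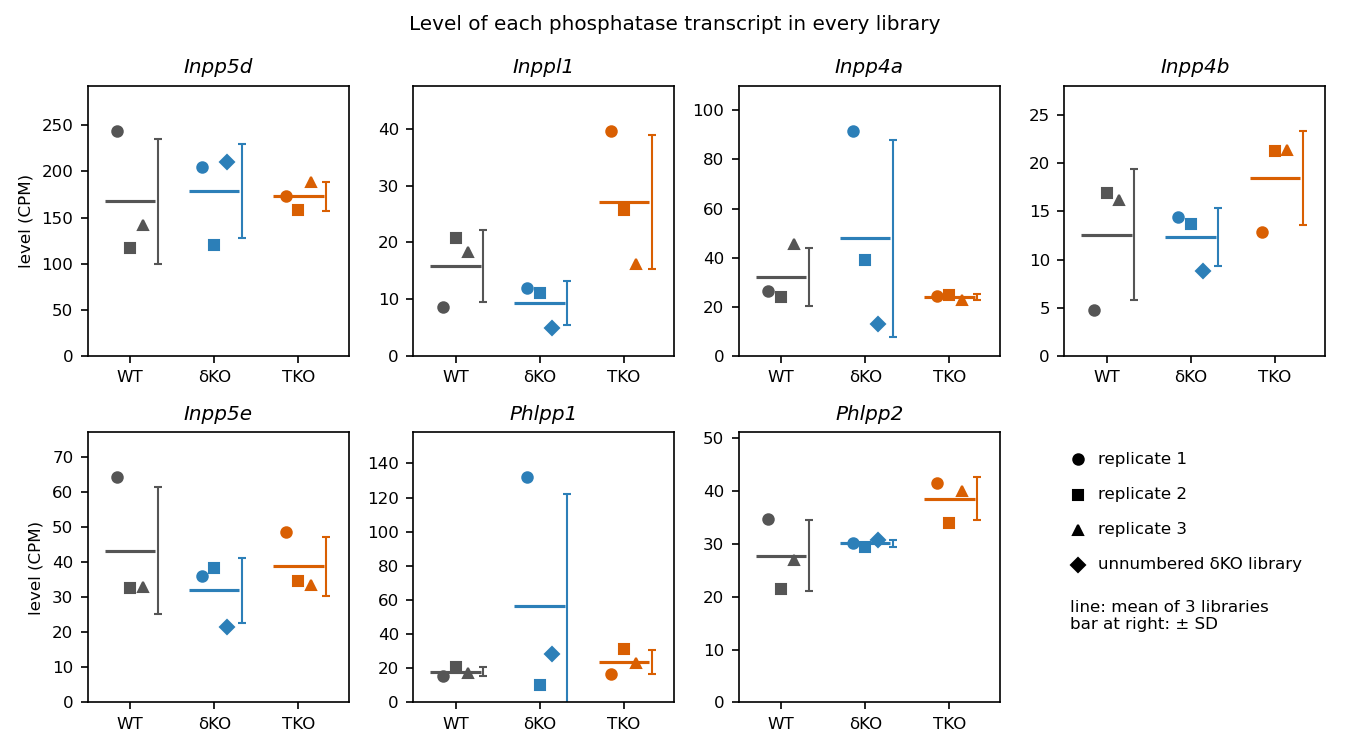
Level (CPM, linear axis from 0) of each phosphatase transcript in every library, by genotype, with the mean of 3 libraries as a line and ± 1 SD as a bar. The lower end of the δKO bar of Phlpp1 lies below 0 and is not drawn. Inppl1 and Phlpp2 are higher in all 3 TKO libraries than in all 3 δKO libraries, and 1 δKO library stands far above the rest for Phlpp1 (132 CPM).

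Inppl1 (SHIP2, ENSMUSG00000032737.12), on chromosome 7 from 101822632 to 101838229 on the minus strand, had no overlap between TKO and δKO. Its level was 8.58, 20.7 and 18.2 CPM in WT replicates 1 to 3. The δKO libraries held 12.05 CPM in replicate 1, 11.0 CPM in replicate 2 and 4.90 CPM in the unnumbered library. In TKO it was 39.7, 25.7 and 16.2 CPM in replicates 1 to 3. Every TKO library was above every δKO library, and WT overlapped with both. Groups without overlap and higher in TKO than in δKO were found for 2 of 7 phosphatases, Inppl1 and Phlpp2, and for 6.98% of all genes. The mean level was 15.8 ± 6.42 CPM for WT, 9.33 ± 3.87 for δKO and 27.2 ± 11.8 for TKO (SD, n = 3 each). In TKO against δKO the log2 fold change of Inppl1 was 1.54 (standard error 0.558, 95% interval 0.32 to 2.76). Its unadjusted p was 0.0176, and its edgeR p adjusted over all genes was 0.465, so the difference did not pass the test. Over the alternatives tried for this difference the adjusted p ranged from 0.0901 to 0.946 and the log2 fold change from 1.16 to 1.81, positive in every one. Inppl1 differed by 0.78 in TKO against WT (95% interval −0.42 to 1.98, edgeR adjusted p = 1.00) and by −0.76 in δKO against WT (95% interval −1.96 to 0.44, edgeR adjusted p = 0.772). The first was 0.40 without TKO replicate 1 and 0.48 without WT replicate 1, and the second was −0.46 without the unnumbered δKO library.

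The libraries at the ends of the range of the summed progenitor markers, most of it from Mpo, Elane and Ctsg, were also at the ends of the range of Inppl1. The summed level of these markers was 12100 CPM in WT replicate 1 and 10600 CPM in the unnumbered δKO library, the pair of libraries with the least Inppl1 of all 9. It was 196 CPM in TKO replicate 1, which had the most Inppl1. The other δKO and TKO libraries did not keep to this order: δKO replicate 1, with a marker sum of 282 CPM, had less Inppl1 than TKO replicate 2, with a marker sum of 2810 CPM. Of the markers that are not granule genes, Flt3 followed the sum and Cd34 and Cd48 did not. In WT replicate 1, the unnumbered δKO library and TKO replicate 1, Flt3 was at 115, 50.8 and 12.4 CPM. In the same libraries Cd34 was at 106, 59.8 and 89.5 CPM and Cd48 at 18.3, 12.9 and 14.0 CPM. The part of these markers in the Inppl1 difference was not tested. Inppl1 shares 1204 bases (18.8%) of its exons with the antisense gene Gm10602 on the other strand, which was at 0 to 1.22 CPM, and the strand setting of the counting is not given in the sources used here.

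Within each library the 2 SHIP genes were compared as a ratio per length. Inpp5d exceeded Inppl1 by 23.9-fold, 4.73-fold and 6.54-fold in WT replicates 1 to 3. The ratio in δKO was 14.3 in replicate 1, 9.19 in replicate 2 and 36.0 in the unnumbered library, and in TKO it was 3.67, 5.16 and 9.81 in replicates 1 to 3. The lowest SHIP1 to SHIP2 ratio was thus in a TKO library and the highest in a δKO library, and TKO replicate 3 overlapped with δKO. On the log2 scale the ratio averaged 3.18 ± 1.24 for WT, 4.07 ± 1.01 for δKO and 2.51 ± 0.72 for TKO (SD, n = 3 each). The difference was −1.56 in TKO against δKO (exact two-sided permutation test, p = 0.2), −0.66 in TKO against WT (exact permutation p = 0.6) and 0.89 in δKO against WT (exact permutation p = 0.4). Without WT replicate 1 the log2 difference of TKO against WT became 0.036. With single libraries left out it ranged from −1.99 to −1.01 in TKO against δKO, the latter without the unnumbered δKO library, and from 0.34 to 1.59 in δKO against WT, the lowest without the unnumbered δKO library and the highest without WT replicate 1. With 3 libraries against 3, the smallest p this exact permutation test can give is 0.1.

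**Figure D4:**
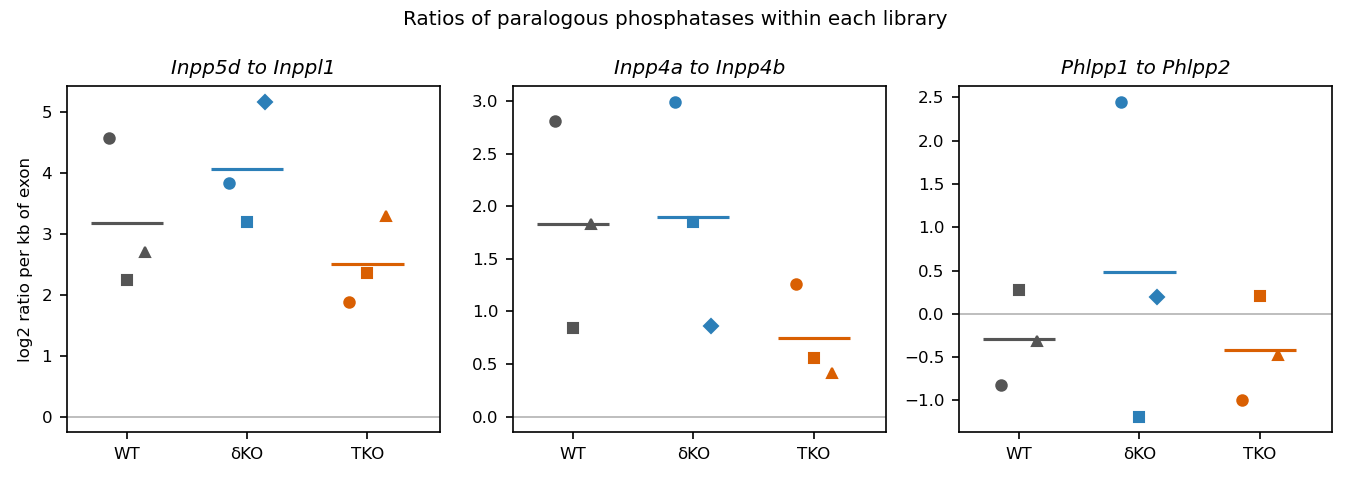
Log2 ratio per kilobase of exon of paralogous phosphatases in each library (points), with the mean of 3 libraries as a line: Inpp5d to Inppl1, Inpp4a to Inpp4b and Phlpp1 to Phlpp2. A value of 0 stands for equal levels. The genotypes overlap in all 3 panels, and the Inpp5d to Inppl1 ratio is above 0 in all 9 libraries.

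Inpp4a and Inpp4b act on the product of the SHIP enzymes. Inpp4a (ENSMUSG00000026113.17) lies on chromosome 1 from 37299865 to 37410736, on the plus strand. Its level was 26.6, 24.1 and 45.8 CPM in WT replicates 1 to 3, and 24.5, 24.9 and 22.6 CPM in TKO replicates 1 to 3. δKO cells had 91.6 CPM in replicate 1, 39.1 CPM in replicate 2 and 12.8 CPM in the unnumbered library. The δKO libraries thus held both the highest and the lowest value of Inpp4a, while the TKO libraries lay within 1.10-fold of each other. The mean was 32.2 ± 11.9 CPM for WT, 47.8 ± 40.1 for δKO and 24.0 ± 1.23 for TKO (SD, n = 3 each). In TKO against δKO the log2 fold change of Inpp4a was −0.99 (standard error 0.570, edgeR adjusted p = 0.563), and it was −0.12 without δKO replicate 1. It was −0.42 in TKO against WT (edgeR adjusted p = 1.00, with a log2 fold change of −0.080 without WT replicate 3) and 0.57 in δKO against WT (edgeR adjusted p = 0.841). The value in δKO against WT became −0.31 without δKO replicate 1.

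Inpp4b (ENSMUSG00000037940.15), which spans a long interval of chromosome 8 from 81342556 to 82127914 on the plus strand, was the lowest of the 7 per length. Its level was 4.75, 16.9 and 16.2 CPM in WT replicates 1 to 3. In δKO it was 14.4 CPM in replicate 1, 13.7 CPM in replicate 2 and 8.85 CPM in the unnumbered library, and in TKO it was 12.9, 21.2 and 21.4 CPM in replicates 1 to 3. Both of the highest values were from TKO, but TKO replicate 1 lay among the WT and δKO libraries. The mean was 12.6 ± 6.81 CPM for WT, 12.3 ± 3.03 for δKO and 18.5 ± 4.87 for TKO (SD, n = 3 each). The Inpp4b difference on the log2 scale was 0.55 in TKO against WT (standard error 0.562, edgeR adjusted p = 1.00), 0.59 in TKO against δKO (edgeR adjusted p = 0.744) and −0.03 in δKO against WT (edgeR adjusted p = 0.998). The log2 fold change of Inpp4b in TKO against WT was 0.16 without WT replicate 1.

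The Inpp4a to Inpp4b ratio per length was 7.03, 1.79 and 3.55 in WT replicates 1 to 3 and 2.40, 1.48 and 1.33 in TKO replicates 1 to 3. In δKO it was 7.97 in replicate 1, 3.60 in replicate 2 and 1.82 in the unnumbered library. Inpp4a was thus the higher of the pair in all 9 libraries, and the lowest ratios, those of TKO replicates 2 and 3, were from TKO. The log2 ratio differed by −1.08 in TKO against WT and by −1.16 in TKO against δKO, and in both the groups overlapped (exact permutation p = 0.2 for each). The log2 difference of TKO against WT was −0.59 without WT replicate 1, and that of TKO against δKO was −0.61 without δKO replicate 1.

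Inpp5e (ENSMUSG00000026925.16) lies on chromosome 2 from 26396249 to 26409203, on the minus strand. Its level was 64.3, 32.7 and 33.1 CPM in WT replicates 1 to 3 and 48.6, 34.6 and 33.5 CPM in TKO replicates 1 to 3. The δKO level was 36.1 CPM in replicate 1, 38.5 CPM in replicate 2 and 21.4 CPM in the unnumbered library. Replicate 1 was the highest in WT and in TKO, and the genotypes overlapped. The Inpp5e difference on the log2 scale was −0.16 in TKO against WT (standard error 0.384, edgeR adjusted p = 1.00), 0.28 in TKO against δKO (edgeR adjusted p = 0.837) and −0.44 in δKO against WT (edgeR adjusted p = 0.818). Without WT replicate 1 the value in δKO against WT was −0.039, and without the unnumbered δKO library that in TKO against δKO was 0.058. Inpp5e shares 874 bases (20.3%) of its exons with Pmpca, a mitochondrial processing peptidase gene on the other strand that was at 72.7 to 102 CPM, and without strand the reads of this stretch cannot be assigned to either gene. The level of Inpp5e is uncertain to that extent.

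Phlpp1 (ENSMUSG00000044340.7), on chromosome 1 from 106171752 to 106394250 on the plus strand, had the highest biological coefficient of variation of the 7 genes (0.599). Its level was 15.7, 20.8 and 17.4 CPM in WT replicates 1 to 3 and 16.7, 31.1 and 23.0 CPM in TKO replicates 1 to 3. δKO cells had 132 CPM in replicate 1, 10.3 CPM in replicate 2 and 28.1 CPM in the unnumbered library. The δKO group held the highest and the lowest value of all 9 libraries, 12.8-fold apart. The value of 132 CPM rested on 3304 counts of amplified RNA, which are not independent molecules. δKO replicate 1 also had the fewest genes detected (18180) and the highest summed HSC markers (3020 CPM), and their part in the Phlpp1 value was not tested. The mean was 18.0 ± 2.59 CPM for WT, 56.8 ± 65.6 for δKO and 23.6 ± 7.25 for TKO (SD, n = 3 each). In δKO against WT the log2 fold change of Phlpp1 was 1.66 (standard error 0.716, 95% interval 0.09 to 3.23). The unadjusted p was 0.0395 and the edgeR adjusted p was 0.699. Without δKO replicate 1 the value of Phlpp1 was 0.10, and with a covariate for how many genes each library detected it was −0.24. In TKO against δKO the log2 fold change was −1.26 (edgeR adjusted p = 0.557), and it was 0.29 without δKO replicate 1. In TKO against WT it was 0.40 (standard error 0.699, edgeR adjusted p = 1.00), and 0.14 on the log2 scale without TKO replicate 2.

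Phlpp2 (ENSMUSG00000031732.12), on chromosome 8 from 109868542 to 109944671 on the plus strand, lay within 1.04-fold among δKO libraries and 1.23-fold among TKO libraries, and within 1.62-fold in WT. Its level was 34.8, 21.5 and 27.0 CPM in WT replicates 1 to 3. In δKO it was 30.2 CPM in replicate 1, 29.4 CPM in replicate 2 and 30.7 CPM in the unnumbered library, and in TKO it was 41.5, 33.9 and 40.05 CPM in replicates 1 to 3. Every TKO library was above every δKO library, and TKO replicate 2 was just below WT replicate 1. The mean was 27.8 ± 6.66 CPM for WT, 30.1 ± 0.638 for δKO and 38.5 ± 4.06 for TKO (SD, n = 3 each). The Phlpp2 difference on the log2 scale was 0.47 in TKO against WT (standard error 0.321, 95% interval −0.23 to 1.17, edgeR adjusted p = 1.00). It was 0.35 in TKO against δKO (95% interval −0.35 to 1.06, edgeR adjusted p = 0.725) and 0.12 in δKO against WT (edgeR adjusted p = 0.962). Both differences of TKO kept a positive sign in every alternative tried, from 0.31 to 0.66 against WT and from 0.29 to 0.44 against δKO.

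The Phlpp1 to Phlpp2 ratio per length was 0.565, 1.21 and 0.806 in WT replicates 1 to 3 and 0.502, 1.15 and 0.720 in TKO replicates 1 to 3. The δKO ratio was 5.46 in replicate 1, 0.439 in replicate 2 and 1.15 in the unnumbered library. Neither PHLPP transcript was the higher one throughout. The exact permutation p was 0.7 for each pair of genotypes, and the sign of each difference changed when single libraries were left out.

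**Figure D5:**
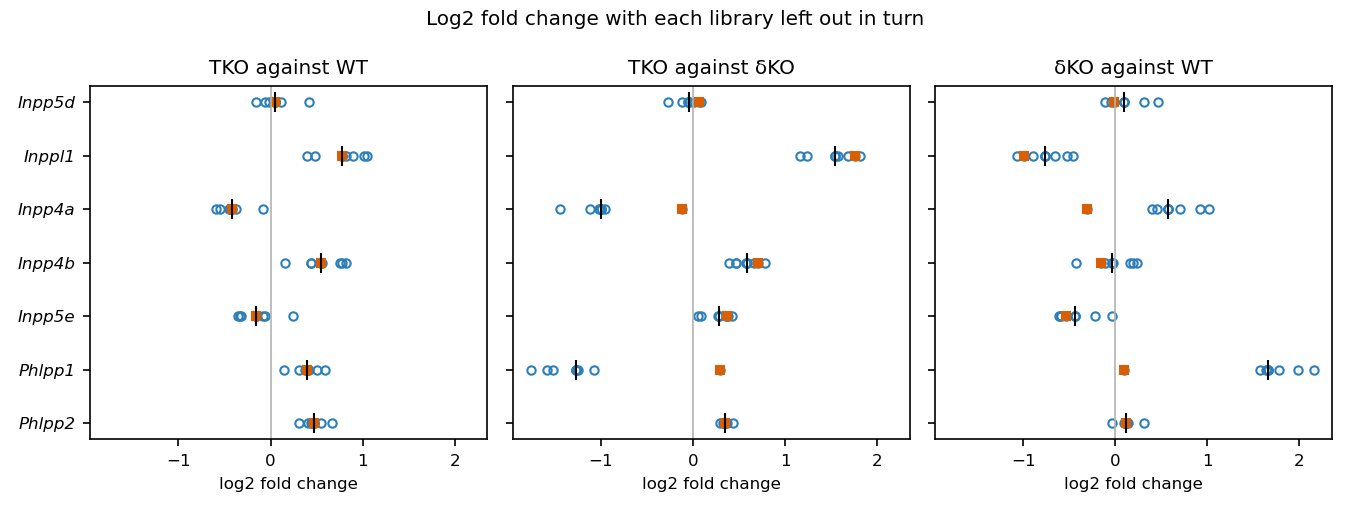
Log2 fold change of each phosphatase gene with all 9 libraries (black tick) and with each library left out in turn (open circles), the value without δKO replicate 1 as an orange square. Without that library the Phlpp1 values lie near 0 (0.10 in δKO against WT and 0.29 in TKO against δKO), whereas every Inppl1 value in TKO against δKO is above 1.

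Correlations among the 7 transcripts were computed over the 9 libraries. Of the 21 pairs, none had a correlation of log2 CPM that passed Benjamini-Hochberg adjustment over the pairs (lowest adjusted permutation p = 0.693 for Pearson's r and 0.639 for Spearman's rho, n = 9). The SHIP genes had r = −0.44 (permutation p = 0.243, adjusted p = 0.839) and rho = −0.55 (permutation p = 0.133, adjusted p = 0.639), and r = −0.68 without WT replicate 2 and δKO replicate 2, the libraries farthest from the median of Inpp5d. With each genotype centered on its own mean, r was −0.66. The strongest centered values, given as a description, were −0.82 for Inpp4b with Phlpp2, 0.78 for Inpp5d with Phlpp2 and −0.74 for Inpp5d with Inpp4b. As a description, the genes most like each phosphatase over the 9 libraries were sought among the 10753 kept genes that averaged 5 CPM or more. For Inpp5d these were Wdfy4 (r = 0.924) and Cpm (0.903), for Inppl1 Selenbp1 (0.977) and Gm6548 (0.953), and for Inpp4a Nudt9 (0.978) and Zfp410 (0.941). For Inpp4b they were H2-Q7 (0.929) and Ankrd24 (0.905), for Inpp5e Mif (0.899) and Idh2 (0.888), for Phlpp1 Fxr1 (0.988) and Nacc2 (0.974), and for Phlpp2 Usp49 (0.969) and Igf1r (0.919). The number of genes with r over 0.9 was 101 for Phlpp1, a gene with 1 library far above the others, and 0 for Inpp5e. With so few libraries, single libraries can set such values.

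Other genes of the pathway were described in 6 lists. In each list and comparison 0 genes had an edgeR adjusted p under 0.05, where the share of all genes was 0.00549%, 0% and 0.00549% in the 3 comparisons, so nothing about these lists follows from it. For the counts by direction below, the share of all genes with an unadjusted p under 0.05 was 1.68% higher and 2.5% lower in TKO against WT, 4.60% higher and 5.56% lower in TKO against δKO, and 3.65% higher and 3.36% lower in δKO against WT. Of 7 other inositol polyphosphate 5-phosphatases, 1 was lower at an unadjusted p under 0.05 in each comparison and 0 were higher. Inpp5j, a 5-phosphatase, was at 2.28, 2.64 and 10.5 CPM in WT replicates 1 to 3, and at most at 1.06 CPM in TKO and 0.848 CPM in δKO. The WT libraries were above all others, and the log2 fold change of Inpp5j was −3.30 in TKO against WT (unadjusted p = 0.025, edgeR adjusted p = 1.00) and −3.14 in δKO against WT (unadjusted p = 0.0304, edgeR adjusted p = 0.699), where both comparisons share the WT libraries. Inpp5b, another 5-phosphatase, was at 47.0, 43.2 and 47.5 CPM in TKO, below the 68.9 to 91.0 CPM of δKO (log2 fold change −0.76, edgeR adjusted p = 0.465).

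Of 13 Sac-domain, myotubularin and PI(4,5)P2 4-phosphatase genes, 1 was lower at an unadjusted p under 0.05 in each comparison, and 1 was higher in TKO against δKO, Inpp5f, named here for its value (45.0 against 24.4 CPM on average, log2 fold change 0.89, edgeR adjusted p = 0.467). Pip4p1, which encodes a PI(4,5)P2 4-phosphatase of the lysosome, was at 21.8, 16.5 and 8.88 CPM in WT and at 4.17 to 8.37 CPM in the 6 other libraries. The log2 fold change of Pip4p1 was −1.34 comparing TKO with WT (edgeR adjusted p = 1.00) and −1.42 in δKO against WT (edgeR adjusted p = 0.699), again with shared WT libraries. Mtmr6, a myotubularin that acts on PI(3)P, was at 23.4 to 34.7 CPM in TKO and 27.7 to 116 CPM in δKO, with overlap (log2 fold change −1.34, edgeR adjusted p = 0.465).

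A list of 11 genes held adaptors and receptors linked to SHIP1, and also the tyrosine phosphatase genes Ptpn6 and Ptpn11. Of these 11 genes, 0 had an unadjusted p under 0.05 in TKO against WT or δKO against WT, and in TKO against δKO 1 was higher and 1 was lower. The higher one was Gab1, also named for its value (42.9 against 22.6 CPM on average, log2 fold change 0.92, edgeR adjusted p = 0.465), and the lower one was Dok3. Dok2, an adaptor that binds SHIP1, was at 36.0, 18.4 and 33.9 CPM in TKO and 8.65, 10.6 and 20.4 CPM in WT (log2 fold change 1.15, edgeR adjusted p = 1.00). In δKO Dok2 was at 44.0 CPM in replicate 1, 22.1 CPM in replicate 2 and 12.5 CPM in the unnumbered library. The log2 fold change of Dok2 was 0.99 in δKO against WT (edgeR adjusted p = 0.712) and 0.17 in TKO against δKO (edgeR adjusted p = 0.938). Its relative Dok3 was at 0.956 to 5.03 CPM in TKO and 3.87 to 81.1 CPM in δKO, where the unnumbered library alone was above 6.82 CPM (log2 fold change −3.46, edgeR adjusted p = 0.465).

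Among 13 subunits and inhibitors of PP2A, a phosphatase that also acts on AKT, 1 was lower at an unadjusted p under 0.05 in TKO against WT and 2 in TKO against δKO, and 0 were higher in any comparison. The catalytic subunit gene Ppp2cb was at 23.5, 25.0 and 32.6 CPM in TKO, below the 37.8 to 52.9 CPM of WT (log2 fold change −0.79, edgeR adjusted p = 1.00), and it was also one of the 2 lower genes in TKO against δKO (log2 fold change −0.75, edgeR adjusted p = 0.465). The scaffold subunit gene Ppp2r1b was at 51.7 to 58.1 CPM in TKO, below the 81.9 to 110 CPM of δKO (log2 fold change −0.72, edgeR adjusted p = 0.465). The regulatory subunit gene Ppp2r5d was at 35.1 to 113 CPM in δKO and 34.1 to 47.0 CPM in WT, with overlap (log2 fold change 0.93, edgeR adjusted p = 0.699).

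Of 15 genes for proteins that bind PIP3 or PI(3,4)P2, 1 was higher at an unadjusted p under 0.05 in δKO against WT and 0 were lower, and in TKO against δKO it was 0 in either direction. Akt2 was at 108 to 172 CPM in δKO, above the 79.0 to 102 CPM of WT (log2 fold change 0.55, edgeR adjusted p = 0.699). TKO libraries, at 111 to 136 CPM of Akt2, likewise all exceeded WT (0.44 on the log2 scale, edgeR unadjusted p = 0.103). Between TKO and δKO the Akt2 levels overlapped (−0.11 on the log2 scale, edgeR adjusted p = 0.91), so higher Akt2 than in WT was not particular to δKO. Arap3, a PIP3-responsive regulator of small GTPases, was at 35.9 to 49.2 CPM in TKO and 30.3 to 90.1 CPM in δKO (log2 fold change −0.67, edgeR adjusted p = 0.591). Of 9 class I PI3K subunit genes, 1 was lower in TKO against WT and 3 in TKO against δKO at an unadjusted p under 0.05, with the targeted Pik3cb in both. The other two in TKO against δKO, chosen after their values were seen, were the catalytic subunit gene Pik3cg (log2 fold change −1.01, edgeR adjusted p = 0.465) and the regulatory subunit gene Pik3r1 (log2 fold change −0.98, edgeR adjusted p = 0.465). In δKO against WT 1 was lower, the targeted Pik3cd (log2 fold change −0.80, edgeR adjusted p = 0.699), and 2 were higher, the regulatory subunit genes Pik3r1 (0.78) and Pik3r2 (1.44, edgeR adjusted p = 0.699 for both).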

How the data were processed

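RNA of sorted LT-HSCs was amplified with the Ovation RNA-Seq V2 kit and sequenced. The authors trimmed reads with Trim Galore 0.3.7, checked them with FastQC 0.11.4 and aligned them to mm10 with STAR 2.5.1b. They deposited raw counts per gene, and a normalized signal that equals the deposited count divided by 1 factor per library (100% of values equal in the 8 columns matched by name, within a relative tolerance of 1e-06, so the count test on them is the test on the raw counts). The remaining δKO column of each table, numbered differently in the count table and in the labels, also held equal values (100%). It was used as δKO without a number, since columns were matched by name only. The annotation, the strand setting and the joining of 2 technical runs per library are not given in the sources used here. In R 4.3.3, genes were kept with edgeR 4.0.16 filterByExpr (count minimum 10, total 15), scaled with TMM and tested with the two-sided quasi-likelihood test on all 9 libraries (common biological coefficient of variation 0.805). Per-length values used the merged exons of GENCODE M21, in which 47224 of 47643 gene identifiers were found without version. No library was a copy of another: pairs from 1 genotype differed by 129 to 592 times counting error (chi-square divided by the number of genes).

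The 7 genes and the other lists were chosen with earlier results of these data known. Named genes were all 7, the targeted genes, the gene with the smallest p of each other list in each comparison, and the 2 genes most like each phosphatase. A list gene that this rule names in TKO against WT is not reported here. Alternatives were DESeq2 1.42.0, limma 3.58.1 on log2(deposited normalized signal + 1), RLE scaling, no filter, a covariate for the genes detected per library, a replicate block, only the groups compared, and each library left out. The script was tested on simulated data. Permutation tests used scipy 1.17.1.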

Additional observations from a re-analysis of the deposited data

How the results depend on the processing

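Over 21 differences of the 7 phosphatases and 357 alternative values, 0 passed the adjusted threshold and 29 changed sign, and 11 of the 21 differences never changed sign. With a covariate for the genes detected per library, the log2 fold change became −0.038 for Inpp5d and −0.041 for Phlpp1 in TKO against WT, 0.26 for Inpp5d and 0.20 for Phlpp1 in TKO against δKO, and −0.30 for Inpp5d, 0.17 for Inpp4b and −0.24 for Phlpp1 in δKO against WT. The replicate numbers did not pair the libraries (correlations of same-numbered deviations from −0.0359 to 0.0829). With the replicate block the log2 fold change of Inpp5d was 0.17 in TKO against δKO and −0.042 in δKO against WT, that of Inpp4b was 0.11 in TKO against δKO and 0.56 in δKO against WT, and the counts of called genes stayed at 1, 0 and 1. Inpp4b in δKO against WT was 0.0019 with DESeq2 on the groups compared and 0.17 with limma. The cause of these sign changes was not tested.

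The number of called genes over the whole table was 1 in TKO against WT, 0 in TKO against δKO and 1 in δKO against WT. It was 125, 546 and 188 with DESeq2 on all libraries and 574, 267 and 194 with DESeq2 on the groups compared, for the same 3 comparisons. It was 5, 2 and 5 with limma, and with edgeR on the groups compared 9 in TKO against WT and 0 in δKO against WT. The cause was not tested. With 1 library left out it was 1 to 4 in TKO against WT, 4 without δKO replicate 1.

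With 1 library left out, values for TKO against WT on the log2 scale ranged from −0.16 to 0.42 for Inpp5d and from −0.35 to 0.24 for Inpp5e. In TKO against δKO it ranged from −0.27 to 0.087 for Inpp5d and from −1.76 to 0.29 for Phlpp1. In δKO against WT it ranged from −0.11 to 0.47 for Inpp5d, from −0.31 to 1.02 for Inpp4a, from −0.42 to 0.23 for Inpp4b and from −0.039 to 0.31 for Phlpp2. The log2 ratio of Inpp5d to Inppl1 ranged from −1.13 to 0.036 in TKO against WT, that of Inpp4a to Inpp4b from −0.47 to 0.59 in δKO against WT, and that of Phlpp1 to Phlpp2 from −0.45 to 0.15 in TKO against WT, −1.75 to 0.072 in TKO against δKO and −0.21 to 1.61 in δKO against WT. The lowest count of any phosphatase was 133, for Inppl1 in the unnumbered δKO library, and counts of amplified RNA are not independent molecules, so the precision of low values is not known from depth alone.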
